A study of Mus musculus with 14 samples.

Results

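Peri cells are lung cells that carry the red tdTomato mark of the Foxd1 lineage and no collagen reporter, and their response to bleomycin was read as the difference between 2 arrays of Peri cells from bleomycin-injured lungs and 2 arrays of Peri cells from uninjured lungs. All mice carried Foxd1-Cre, Rosa26-tdTomato and Coll-GFP. Bleomycin was instilled into the trachea at 0.8 U/kg, the uninjured mice received saline, and lungs were digested and sorted at day 7. The genes described are the 12050 on autosomes, of 12439 genes tested in the series. The other 389, on the sex chromosomes and the mitochondrial genome or of unknown place, were left out, because the labels give the bleomycin mice as male and the uninjured mice as female. Injury and sex cannot be told apart for any value below.

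The comparison groups of the same experiment were PeriFibro cells, with tdTomato and GFP (3 bleomycin and 2 uninjured arrays), and Fibro cells, with GFP alone (3 bleomycin and 2 uninjured arrays). The tdTomato mark is permanent once Cre has acted, so it records descent from cells that used the Foxd1 promoter and not present use of Foxd1. Whether the 2 arrays of a group hold RNA of different mice is not stated in the labels, so a p-value here covers the spread between arrays, which may be technical.

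Pericytes wrap capillaries, share a basement membrane with the endothelium and help to hold vessels stable. Bleomycin breaks DNA in lung cells, and the injury brings inflammation first and scarring later. In the scarring phase stromal cells lay down collagen, elastin and the enzymes that cross-link them, while macrophages that clear debris turn on arginase, complement C1q and lysosomal genes.

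On the 4 Peri arrays 40.3% to 42.34% of probes were detected above background. The mean raw signal was 354.5 and 390.7 on the bleomycin arrays, against 379.8 and 194.5 on the uninjured arrays. Across genes the 2 bleomycin arrays correlated at 0.973 and the 2 uninjured arrays at 0.981, and pairs that crossed the groups at 0.952 to 0.969.

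The markers of the sorted cells were checked on the same arrays. Of 17 measured pericyte genes 9 were detected on every Peri array, and Rgs5 and Lamc3, which mark lung pericytes, on none. Pdgfrb, the PDGF receptor through which endothelium recruits pericytes, read 5.08 and 6.32 log2 units on the bleomycin arrays, against 5.74 and 5.38 on the uninjured arrays. Those groups overlap, and the difference was 0.14 (adjusted p = 1.00 by limma). All 14 measured pan-leukocyte genes were detected on all 4 arrays. The summed linear intensity of the pericyte genes was 1103 and 2275 after bleomycin, against 1333 and 862.4 uninjured. That of the pan-leukocyte genes was 82470 and 75820 after bleomycin, against 79610 and 81970 uninjured. Such sums can be compared between arrays but not between lists, which rest on different probes. The population is called Peri, after its sort, since its pericyte markers were detected only in part. In bulk RNA, fewer cells of a type and less RNA per cell cannot be told apart.

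**Figure D1:**
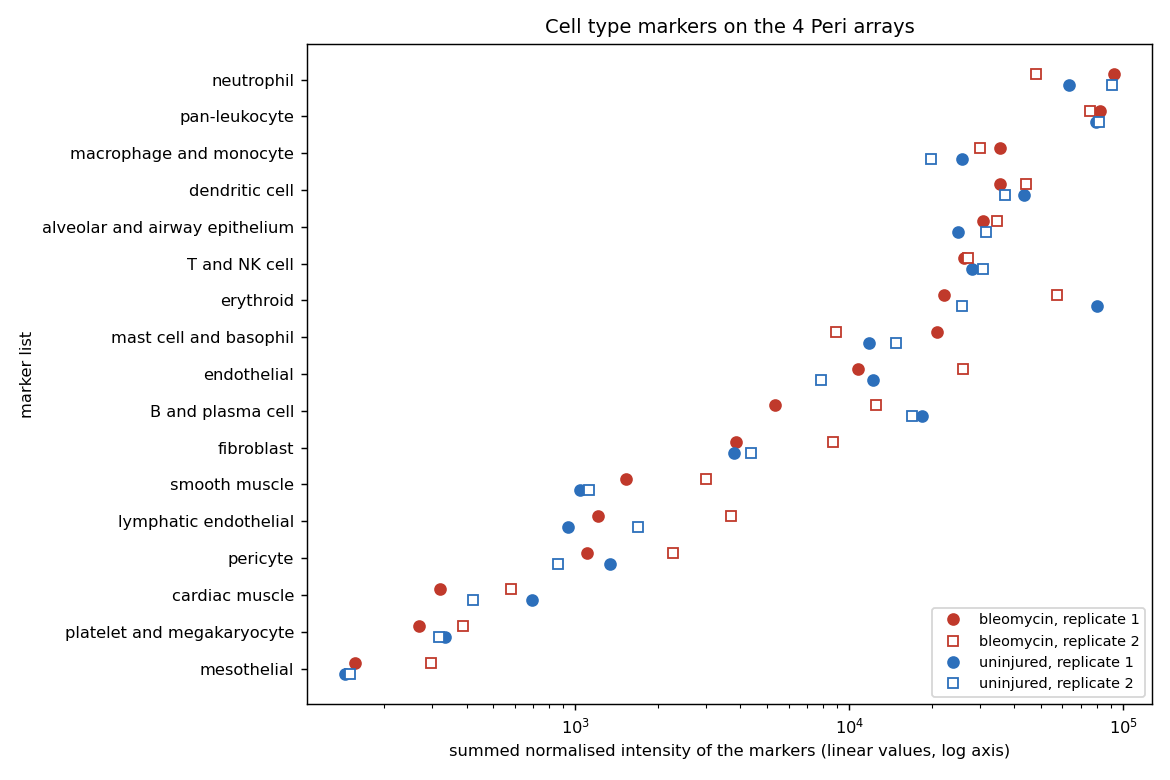
Summed normalised intensity (linear values on a log axis) of each cell type marker list on the 2 Peri bleomycin arrays (red) and the 2 Peri uninjured arrays (blue); filled circles are replicate 1 and open squares replicate 2. Positions can be compared between the arrays of a list but not between lists, which rest on different probes. The pericyte sums run between 862.4 and 2275, and the B and plasma cell list is lower on both bleomycin arrays than on both uninjured arrays.

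Calls required an adjusted p below 0.05 with a change of at least 2-fold. By this rule 60 autosomal genes rose in Peri cells after bleomycin (0.498% of those tested) and 10 fell (0.083%). At an unadjusted p under 0.05 there were 842, of which 552 were higher and 290 lower. The median log2 difference over all autosomal genes was 0.03. The called genes changed by 2.36-fold (Edaradd) to 55.6-fold (Gpnmb), and 52 of the 70 changed by 4-fold or more.

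The highest rises included Gpnmb, a glycoprotein of lysosome-rich macrophages, Serpina3n, a secreted protease inhibitor of the acute phase, Arg1, the arginase of alternatively activated macrophages, and the 3 chains of complement C1q. Gpnmb and Arg1 kept their call in each of the 18 alternative analyses in which single genes were followed. Matrix genes that rose were Eln (elastin), Loxl1, a cross-linking enzyme of elastin, Mgp, an inhibitor of calcification in matrix, Ccn2, a matricellular growth factor, and Mmp14, a protease anchored in the cell membrane. Of the same 18 analyses their calls held in 5 (Eln), 6 (Loxl1 and Ccn2), 8 (Mmp14) and 9 (Mgp). None of these matrix genes was called with the values deposited by the authors or with only the 4 Peri arrays in the model. No fibrillar collagen and no contractile gene was called.

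The 3 C1q genes lie beside each other on chromosome 4 and rose together, and Mt1 and Prnp are genes whose rise in Peri cells differed from the response of Fibro cells. The 250 bases before the start of 4 of these genes are shown (RefSeq, GRCm38.p6). For C1qb and C1qc capitals mark GAGGAA on either strand, the core bound by PU.1, a factor of myeloid cells. For Prnp they mark TGANTCA, the AP-1 site, and for Mt1 TGCGCNC or TGCACNC, the core of the metal response element.
C1qb, chr4:136886201-136886450, minus strand: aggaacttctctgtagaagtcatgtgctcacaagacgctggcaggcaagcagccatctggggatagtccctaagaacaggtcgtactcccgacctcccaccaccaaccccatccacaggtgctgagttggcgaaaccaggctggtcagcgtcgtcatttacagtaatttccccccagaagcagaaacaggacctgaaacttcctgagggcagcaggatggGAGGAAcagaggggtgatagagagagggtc
C1qc, chr4:136892915-136893164, minus strand: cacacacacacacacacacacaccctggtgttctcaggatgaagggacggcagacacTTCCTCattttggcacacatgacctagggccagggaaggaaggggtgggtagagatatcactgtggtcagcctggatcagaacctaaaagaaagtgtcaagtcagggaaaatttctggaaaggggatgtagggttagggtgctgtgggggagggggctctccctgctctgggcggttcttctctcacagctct
Prnp, chr2:131909678-131909927, plus strand: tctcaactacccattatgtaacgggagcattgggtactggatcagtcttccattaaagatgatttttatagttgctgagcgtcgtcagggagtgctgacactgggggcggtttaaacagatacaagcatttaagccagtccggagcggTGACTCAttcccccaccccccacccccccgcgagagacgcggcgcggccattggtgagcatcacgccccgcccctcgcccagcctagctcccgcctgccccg
Mt1, chr8:94178839-94179088, plus strand: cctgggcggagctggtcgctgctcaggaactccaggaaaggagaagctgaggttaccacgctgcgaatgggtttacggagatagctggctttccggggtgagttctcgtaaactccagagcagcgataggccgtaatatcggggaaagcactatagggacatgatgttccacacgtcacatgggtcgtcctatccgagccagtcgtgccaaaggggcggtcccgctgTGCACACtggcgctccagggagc

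Each of the 4 windows held 1 match, which began 30 bases before the start in C1qb, 193 in C1qc, 102 in Prnp and 23 in Mt1. Of the 60 genes that rose 40 have a promoter in the RefSeq table, and a gene with several starts was counted as holding a motif if any of its windows held it. GAGGAA stood in 18 of the 40 (45%), against 26.7% of 9694 measured genes and 23.3% of 32851 promoters. TGANTCA stood in 7 (17.5%), against 6.14% of measured genes and 6.75% of promoters. The metal response core stood in 12 (30%), against 32.9% of measured genes and 21.4% of promoters. Further motifs were searched in the same windows. CACGTG stood in 4 (10%), against 9.5% of measured genes and 6.02% of promoters. CATGTG stood in 6 (15%), against 9.55% and 12.3%, and the STAT site in 4 (10%), against 7.5% and 7.02%. These shares are a description of letters in a window and were not tested.

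Among macrophage genes, Gpnmb read 11.29 and 12.36 log2 units on the bleomycin arrays, against 6.23 and 5.82 on the uninjured arrays. Both bleomycin arrays lay above both uninjured arrays, at 5.80 ± 0.41 (log2 difference ± SE, 55.6-fold, adjusted p = 5.5e-05 by limma). The other 3 kept probes of Gpnmb were weak and differed by 0.20 to 1.18, and the mean of all its probes gave 1.93.

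Arg1, which breaks down arginine and withholds it from nitric oxide synthesis, read 9.03 and 9.69 after bleomycin, against 4.71 and 4.34 uninjured. The probe that gave these values was detected on neither uninjured array, so its rise was at least 23.8-fold (4.83 ± 0.33, adjusted p = 5.5e-05 by limma). The other kept probe of Arg1, detected on 3 of the 4 Peri arrays, rose less, by 3.47.

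The C1q chains form the recognition unit that starts the classical complement pathway, and tissue macrophages make most of it. C1qb read 10.02 and 10.59 after bleomycin, against 5.92 and 5.66 uninjured (22.9-fold, adjusted p = 0.0047 by limma). C1qc read 8.70 and 9.46 after bleomycin, against 4.86 and 5.06 uninjured (17.4-fold). C1qa read 7.60 and 8.11 after bleomycin and was detected on neither uninjured array, a rise of at least 8.42-fold. Of 12 measured complement genes these 3 were called, against 0.498% of all autosomal genes, and the median of the list was 1.29. Of the 12, 8 were higher on both bleomycin arrays than on both uninjured arrays, against 23.23% of all autosomal genes, and 1 was lower on both, against 19.15%. Of 19 alternatively activated macrophage genes Gpnmb and Arg1 were called, against 0.498%, and the median was 1.71. Of the 19, 13 were higher without overlap, against 23.23%, and 2 were lower, against 19.15%.

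Cell type markers moved beside these genes. Of 16 macrophage and monocyte markers the 3 C1q genes were called, against 0.498% of all autosomal genes, and 12 of the 16 were detected on every Peri array. The median of the list was 1.6, and 12 of the 16 lay above 0, against 54.27% of all autosomal genes. Without overlap 7 were higher, against 23.23% of all autosomal genes, and 3 were lower, against 19.15%. Csf1r, which had the lowest difference of the list (-1.21), read 9.64 and 8.76 after bleomycin, against 10.29 and 10.53 uninjured. The summed level of the list was 35580 and 30110 after bleomycin, against 25780 and 19960 uninjured. The part of cell content in the rise of the macrophage genes was not tested. The pan-leukocyte list did not rise with them: its median difference was -0.31 and 5 of its 14 members lay above 0, against 54.27% of all autosomal genes.

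Other genes of the top 15 share no single pathway. Dab2, an adaptor for clathrin-mediated uptake, read 8.70 and 10.04 after bleomycin, against 5.41 and 5.25 uninjured (16.4-fold, adjusted p = 0.0014 by limma). Prnp, the cellular prion protein, read 11.51 and 9.53 after bleomycin, against 7.11 and 5.89 uninjured (16.2-fold, adjusted p = 0.012 by limma). Spint1, a membrane inhibitor of serine proteases, read 10.01 and 10.02 after bleomycin, against 6.02 and 5.98 uninjured (16.1-fold, adjusted p = 0.0017 by limma). A second kept probe of Spint1 rose less, by 1.65. The other kept probes of Dab2 rose by 4.12 and 1.41.

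By the probe that stood for each of those 3 genes, the groups lie at least 2 log2 units apart, and Spint1 is nearly identical within each group. Serpina3n read 8.84 and 11.04 after bleomycin, against 4.37 and 5.14 uninjured (36.4-fold, adjusted p = 0.0056 by limma), so its 2 bleomycin arrays differ more than the uninjured ones. Lhfpl2, a membrane protein of the tetraspan type, read 9.21 and 9.14 after bleomycin, against 5.27 and 5.66 uninjured (13.1-fold, adjusted p = 0.0046 by limma). F7, coagulation factor VII, read 6.68 and 8.94 after bleomycin and was detected on neither uninjured array (at least 8.12-fold, adjusted p = 0.034 by limma).

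**Figure D2:**
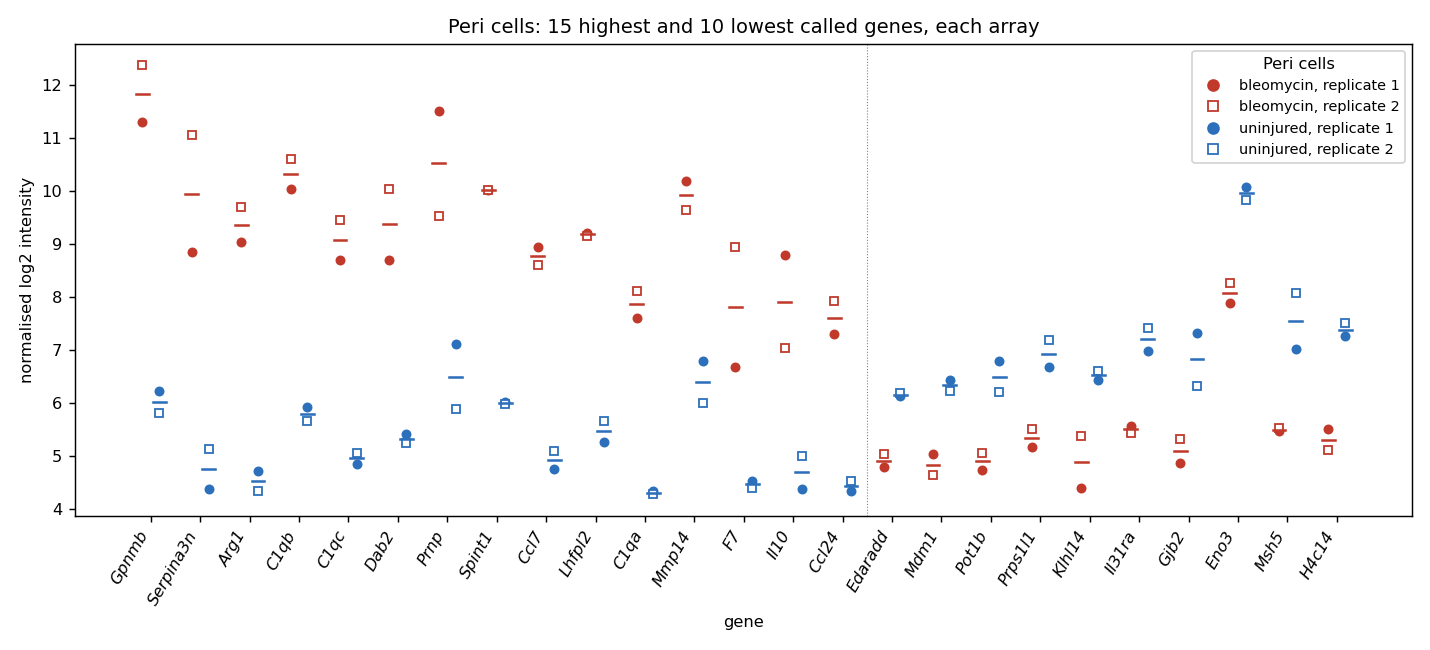
Normalised log2 intensity of the 15 genes with the highest and the 10 with the lowest called difference on each Peri array; red is bleomycin and blue uninjured, filled circles are replicate 1, open squares replicate 2 and bars the means of 2 arrays. No gene has overlapping groups, Gpnmb reaches 12.36 on a bleomycin array, and F7, Serpina3n, Prnp and Il10 show the widest gaps between the 2 bleomycin arrays.

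Ligands came next. Of 16 chemokines and growth factors of monocytes 3 were called, against 0.498% of all autosomal genes, with a list median of 0.89. Ccl7, which draws monocytes, read 8.93 and 8.60 after bleomycin, against 4.76 and 5.10 uninjured (14.3-fold, adjusted p = 0.014 by limma). Ccl12, its neighbour in the chemokine cluster of chromosome 11, read 8.34 and 7.18 after bleomycin, against 4.41 and 4.80 uninjured (8.89-fold). Ccl24, an eosinophil attractant made by macrophages, read 7.30 and 7.92 after bleomycin and was detected on neither uninjured array (at least 7.08-fold). Ccl2, the best known monocyte attractant, read 7.26 and 5.86 after bleomycin, against 4.79 and 4.83 uninjured, a difference of 1.75 that did not pass (adjusted p = 0.61 by limma).

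Cxcl16, a chemokine with a membrane-bound form that also takes up oxidised lipid, rose 7.54-fold and Edn1, the vessel-constricting peptide endothelin, 5.15-fold. A second kept probe of Cxcl16, detected on 3 Peri arrays, differed by 1.00. Pdgfa, a ligand for the receptor of fibroblasts, rose 2.96-fold and Bmp7, a ligand of the BMP family that opposes TGF-beta, at least 3.26-fold. Among 16 genes of TGF-beta and activin signalling none was called and the median was 0.19. Its largest differences were 2.76 for Inhba, the activin A subunit (8.93 and 7.54 after bleomycin, against 5.86 and 5.10 uninjured), 0.85 for Itgb6 and 0.72 for Tgfbr1.

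Il10, an anti-inflammatory cytokine, read 8.78 and 7.04 after bleomycin, against 4.39 and 5.01 uninjured (9.27-fold, adjusted p = 0.0496 by limma). Tnfrsf9, a costimulatory receptor of T cells, rose 4.79-fold (adjusted p = 0.020 by limma). A second kept probe of Tnfrsf9, detected on all 4 Peri arrays, differed by 0.89. Il10 and Tnfrsf9 were the 2 called of 18 genes of T cell costimulation and interleukin receptors, against 0.498% of all autosomal genes. Of the 18, 15 were higher on both bleomycin arrays than on both uninjured arrays, against 23.23% of all autosomal genes, with a median of 0.74. The 10 measured T and NK cell markers had a median of -0.00, with sums of 26240 and 27060 after bleomycin, against 28160 and 30830 uninjured. Ccr8, a chemokine receptor of regulatory T cells and type 2 cells, rose at least 3.02-fold. Ffar2, the receptor for short-chain fatty acids on leukocytes, read 9.35 and 8.57 after bleomycin, against 5.85 and 6.09 uninjured (7.97-fold, adjusted p = 0.0017 by limma).

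The acute cytokines split the 2 bleomycin arrays. None of 17 was called, the list median was 0.69, and replicate 1 exceeded replicate 2 by a median of 0.84. Cxcl10, an attractant of activated T cells, read 11.57 and 6.85 after bleomycin, against 5.86 and 6.80 uninjured (adjusted p = 0.77 by limma). Tnf read 10.90 and 8.01 after bleomycin, against 7.39 and 7.39 uninjured (adjusted p = 0.63 by limma). For both genes replicate 1 stands far above the other arrays.

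Cxcl1, a neutrophil attractant, read 9.24 and 9.03 after bleomycin, against 6.86 and 7.62 uninjured, a difference of 1.90 that did not pass (adjusted p = 0.51 by limma). Cxcl2 differed by 0.69 and Ccl20 by -0.03, with overlapping groups. Il6 read 5.63 and 5.40 after bleomycin, against 5.89 and 6.46 uninjured (-0.66, adjusted p = 0.97 by limma). Icam1, an adhesion molecule for leukocytes, read 12.21 and 10.86 after bleomycin, against 9.90 and 10.05 uninjured (1.56, adjusted p = 0.42 by limma).

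Interferon-stimulated genes did not move on balance: none of 21 was called and the median was 0.01. Without overlap 1 was higher, against 23.23% of all autosomal genes, and 2 were lower, against 19.15%. Replicate 1 exceeded replicate 2 of the bleomycin arrays by a median of 1.32 in this list and by 1.60 in the neutrophil list, none of whose 15 members was called. The largest differences were -1.03 for Oasl2 and 1.02 for Gbp2.

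Of 14 elastic fibre genes 2 were called, against 0.498% of all autosomal genes, with a median of 0.85. Eln read 7.96 and 9.22 after bleomycin, against 6.17 and 5.28 uninjured (7.29-fold, adjusted p = 0.034 by limma). Its second kept probe was detected on no Peri array and differed by -0.04. Loxl1 read 7.82 and 9.33 after bleomycin, against 6.25 and 6.28 uninjured (4.97-fold, adjusted p = 0.049 by limma). Both genes were higher on bleomycin replicate 2 than on replicate 1.

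Single members were called in the neighbouring lists, while 0.498% of all autosomal genes were called higher. Mmp14, which activates other matrix proteases and cleaves collagen, read 10.19 and 9.64 after bleomycin, against 6.80 and 6.003 uninjured (11.4-fold, adjusted p = 0.020 by limma), the 1 called of 21 proteases and inhibitors. A second kept probe of Mmp14, detected on no Peri array, differed by -0.18. Ccn2 read 8.61 and 10.41 after bleomycin, against 7.21 and 5.85 uninjured (7.89-fold, adjusted p = 0.039 by limma), the 1 called of 11 matricellular genes. P4ha2, a collagen prolyl hydroxylase, rose at least 2.51-fold by the probe used and Ccdc80, a secreted matrix protein, 3.11-fold. A second kept probe of P4ha2, detected on 3 of the 4 Peri arrays, differed by only 0.58. Mgp, outside these lists, read 11.88 and 13.45 after bleomycin, against 9.34 and 10.47 uninjured (6.77-fold).

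Collagens themselves were not called. Of 10 fibrillar and associated collagens 5 were higher without overlap, against 23.23% of all autosomal genes, and the median was 0.81. Col5a1, a regulator of fibril width, read 6.87 and 8.71 after bleomycin, against 5.37 and 5.16 uninjured (2.53, adjusted p = 0.11 by limma). Col1a1, a chain of type I collagen, read 5.38 and 7.59 after bleomycin and was detected on neither uninjured array (at least 3.25-fold, adjusted p = 0.36 by limma). Col6a1 differed by 2.45. Col3a1 read 4.39 and 6.41 after bleomycin, against 4.42 and 4.69 uninjured, and was detected on 1 of these arrays. Without bleomycin replicate 1, the array with the lower levels, the differences were 3.1 for Col1a1, 3.4 for Col5a1 and 3.4 for Col6a1. That omission raises them by construction and leaves 1 bleomycin array, so it cannot show whether these collagens rose. With array weights Col5a1 was called.

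Basement membrane genes lay on the higher side. All 14 measured members lay above 0, against 54.27% of all autosomal genes, and 12 were higher on both bleomycin arrays than on both uninjured arrays, against 23.23%. The median was 1.11, although none was called. Col15a1, a collagen at the edge of capillaries, read 6.84 and 6.53 after bleomycin and was detected on neither uninjured array (at least 3.74-fold, adjusted p = 0.054 by limma), and it was called in 4 of 18 alternative analyses. Col18a1, the source of endostatin, differed by 2.71 (adjusted p = 0.11 by limma) and Sparc by 1.69. Fn1, fibronectin, read 9.48 and 8.34 after bleomycin, against 7.25 and 7.08 uninjured (1.74, adjusted p = 0.78 by limma).

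The 17 contractile genes had a median of 0.56 and none was called. Acta2, the smooth muscle actin that marks myofibroblasts, read 10.23 and 11.19 after bleomycin, against 9.47 and 9.72 uninjured (1.11, adjusted p = 0.62 by limma). Tpm2 differed by 1.22 and Actg2 by 1.19.

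Stromal and vascular markers stood beside the matrix genes and followed the same array. Bleomycin replicate 1 lay below replicate 2 by a median of 1.26 in fibrillar collagens, of 1.34 in elastic fibre genes and of 0.74 in basement membrane genes. It also lay below by a median of 1.34 in fibroblast markers, of 1.22 in endothelial markers and of 0.86 in pericyte markers. The summed level of the 16 fibroblast markers was 3845 and 8708 after bleomycin, against 3793 and 4375 uninjured, and that of the 22 endothelial markers 10780 and 26040 after bleomycin, against 12220 and 7898 uninjured. The part of these markers in the differences of the matrix genes was not tested. Without bleomycin replicate 2 the median of fibrillar collagens was 0.18 and that of elastic fibre genes 0.13, while without replicate 1 they were 1.55 and 1.63.

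**Figure D3:**
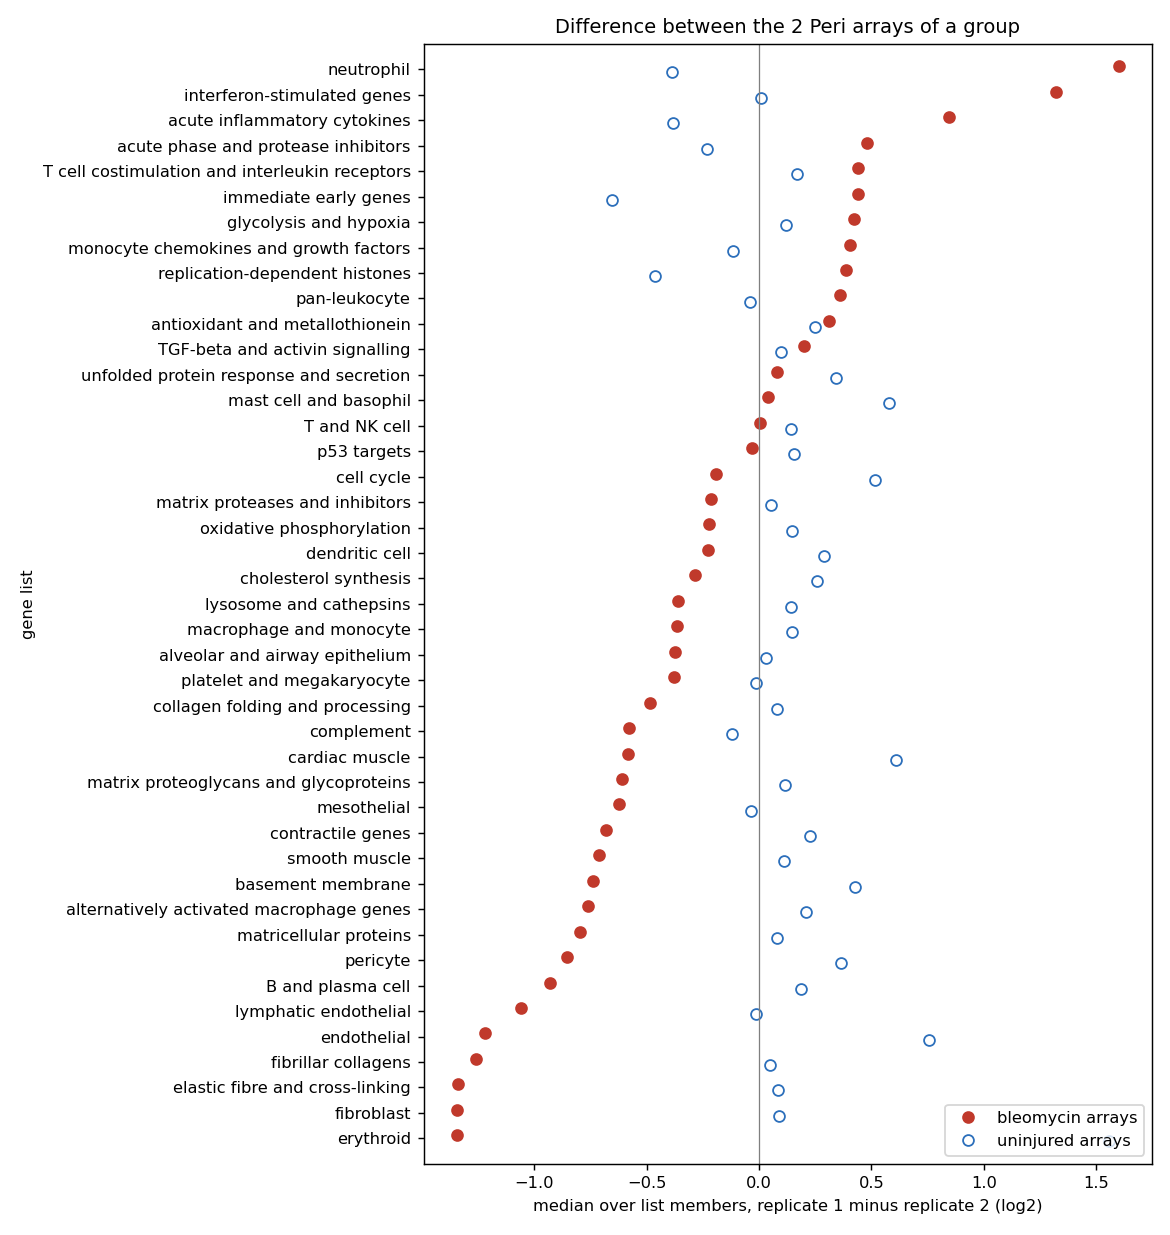
Median over the members of each gene list of the log2 level on replicate 1 minus replicate 2, for the 2 Peri bleomycin arrays (red, filled) and the 2 Peri uninjured arrays (blue, open). Neutrophil, interferon and acute cytokine lists lie to the right for bleomycin, at 1.60, 1.32 and 0.84, and matrix and stromal lists to the left.

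Among genes of metal and oxidant defence 2 of 14 were called, against 0.498% of all autosomal genes, with a median of 0.41. Mt1, metallothionein, which binds zinc and copper, read 12.34 and 13.27 after bleomycin, against 10.04 and 9.58 uninjured (7.99-fold, adjusted p = 0.011 by limma). Gpx3, a secreted peroxidase, read 9.55 and 10.69 after bleomycin, against 8.08 and 7.60 uninjured (4.86-fold, adjusted p = 0.024 by limma). In the lysosome list Cd63, a tetraspanin of late endosomes, joined Gpnmb: it read 11.91 and 11.83 after bleomycin, against 8.74 and 9.31 uninjured (7.20-fold), and its other 2 kept probes rose by 1.83 and 2.30. Cd63 and Gpnmb were the 2 called of 18 lysosome genes, against 0.498% of all autosomal genes, and the median of the list was 0.24.

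Targets of p53, which DNA damage turns on, were not called in any of 15 cases, with a median of 0.35. Cdkn1a, the cell cycle inhibitor p21, read 11.76 and 11.10 after bleomycin, against 10.22 and 9.77 uninjured (1.44, adjusted p = 0.31 by limma). Phlda3 differed by 1.31 and Tnfrsf10b by -0.87. Of 24 cell cycle genes none was called, 22 lay above 0, against 54.27% of all autosomal genes, and the median was 0.45, with Bub1b, a mitotic checkpoint kinase, at 1.19.

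Further called genes have roles in signalling and cell shape. Pdpn, a mucin-type protein of lymphatic endothelium and alveolar type I cells, read 9.29 and 10.37 after bleomycin, against 6.52 and 6.85 uninjured (8.85-fold). It was the 1 called of 8 lymphatic markers, against 0.498% of all autosomal genes. Wfdc2, a secreted epithelial protein, rose 8.23-fold, while none of 20 epithelial markers was called (median 0.72, 14 higher without overlap against 23.23% of all autosomal genes, sums of 30840 and 34500 after bleomycin, against 25020 and 31510 uninjured). Sphk1, which makes sphingosine 1-phosphate, rose at least 6.97-fold, Axl, a receptor for the uptake of dying cells, 5.07-fold, and Socs2, a brake on cytokine signalling, 4.09-fold. A second kept probe of Axl differed by 0.35.

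**Figure D4:**
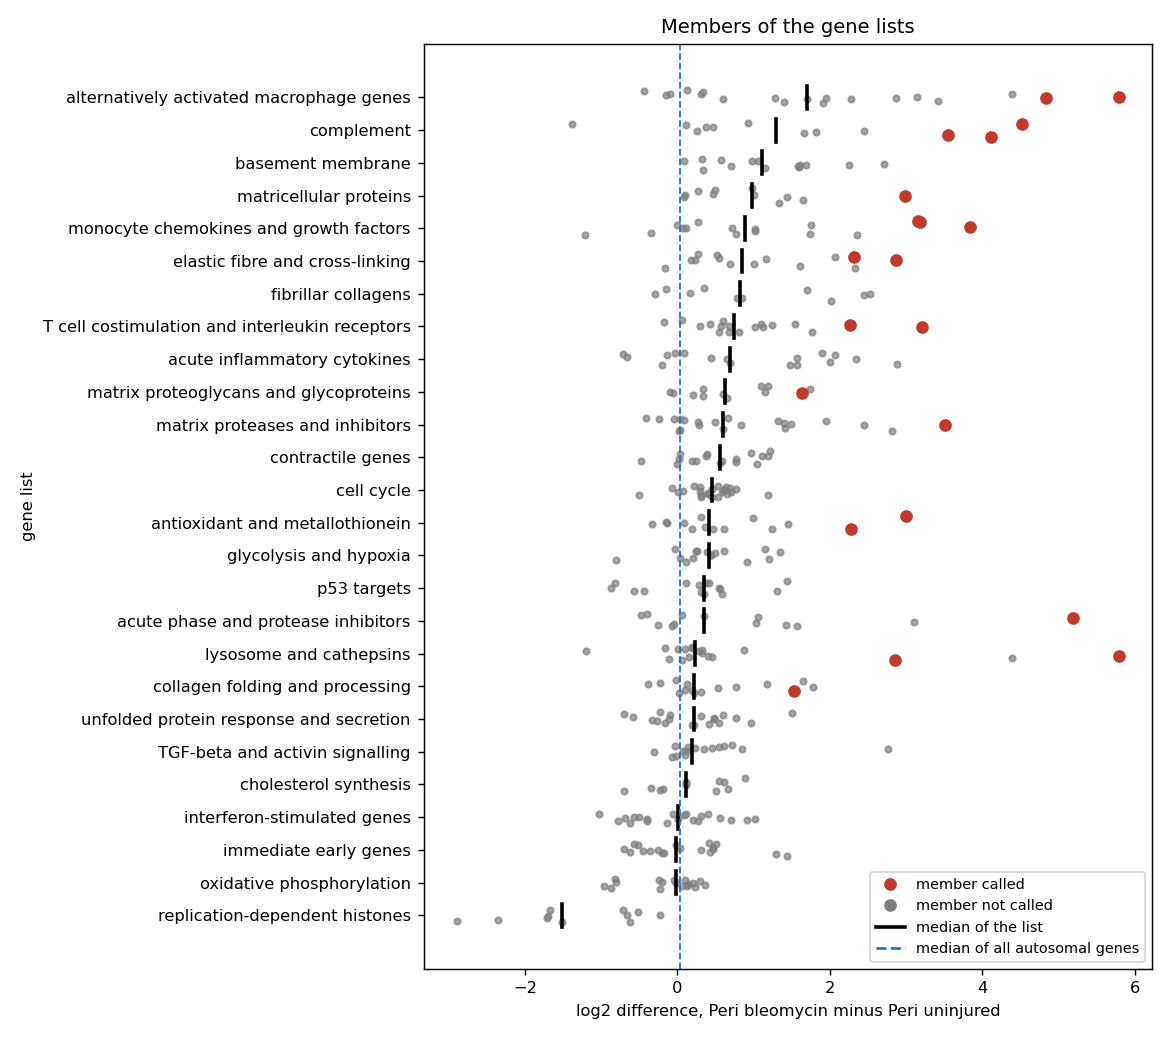
Log2 difference, Peri bleomycin minus Peri uninjured, of each measured member of the gene lists; red points were called, grey points were not, black bars are list medians and the dashed line is the median of all autosomal genes, 0.03. Histone genes lie wholly below 0, with a median of -1.51, and macrophage, complement and basement membrane genes have the highest medians.

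The 10 genes that fell changed by 2.36-fold to 4.22-fold. H4c14, a histone H4 gene, read 5.50 and 5.11 after bleomycin, against 7.27 and 7.50 uninjured (-2.08 ± 0.38, 4.22-fold lower, adjusted p = 0.037 by limma). Msh5, a meiotic recombination protein, read 5.48 and 5.52 after bleomycin, against 7.02 and 8.07 uninjured (4.12-fold lower), but its other 2 kept probes differed by -0.13 and -0.06. Eno3, the enolase of muscle, read 7.88 and 8.26 after bleomycin, against 10.08 and 9.83 uninjured (3.69-fold lower). Gjb2, a connexin of epithelia, and Il31ra, a cytokine receptor, fell by 1.73 and 1.70 on the log2 scale. Klhl14, Prps1l1, Pot1b, Mdm1 and Edaradd completed the 10. The other kept probes of Pot1b differed by -0.15 and -0.62.

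Other histone genes lay on the lower side without a call. H4c14 stands outside the fixed histone list, whose 11 measured members all lay below 0. Of these 10 were lower on both bleomycin arrays than on both uninjured arrays, against 19.15% of all autosomal genes, none passed the test and the median was -1.51. H4c3 read 6.20 and 6.29 after bleomycin, against 8.81 and 9.47 uninjured (-2.90, adjusted p = 0.11 by limma). H4c4 read 5.87 and 5.62 after bleomycin, against 8.10 and 8.11 uninjured (-2.36, adjusted p = 0.068 by limma), and H2ac8 differed by -1.71. Histone genes of one class are nearly identical in sequence, so a probe may read several of them.

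B cell markers lay on the same side. All 8 measured B and plasma cell markers were lower on both bleomycin arrays than on both uninjured arrays, against 19.15% of all autosomal genes, with a median of -1.04, although none was called. Their summed level was 5341 and 12470 after bleomycin, against 18430 and 16980 uninjured. Klhl14 is also expressed by B cells, and the part of B cell content in its fall was not tested.

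The same genes were then read in the other 2 populations, whose arrays are not shared with Peri. The 60 genes that rose in Peri had a median difference of 2.63 in Peri cells, while it was 0.59 in PeriFibro and 0.83 in Fibro cells. Of the 60, 55 lay above 0 in PeriFibro, against 46.2% of all autosomal genes, and 49 in Fibro, against 47.2%. Of the 60, 3 also rose in PeriFibro cells, where 0.0996% of genes rose, and 11 in Fibro cells, where 0.564% rose. The 3 that rose in all populations were Serpina3n, Arg1 and AA467197. The 10 genes that fell in Peri had medians of 0.01 in PeriFibro and 0.02 in Fibro cells.

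The difference between responses was tested in the same model. Peri and Fibro responses differed at 50 genes on the higher side (0.415%) and 7 on the lower side (0.0581%). The higher side holds genes that rose more, or fell less, in Peri than in Fibro cells. Most of the 50 were called lower in Fibro cells, where 122 of the 12050 autosomal genes were called lower. Several of the 50 were detected on no Peri array. Of the 60 genes that rose in Peri 7 were among the 50. Wfdc2 rose by 3.04 in Peri and read -1.91 in Fibro cells (difference 4.95 ± 0.67, adjusted p = 0.011 by limma). Prnp rose by 4.02 in Peri and read -0.43 in Fibro cells (4.46 ± 0.80, adjusted p = 0.037 by limma). Gpnmb rose by 5.80 in Peri and by 1.69 in Fibro cells (4.10, adjusted p = 0.011 by limma).

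Dab2 (3.40), Mt1 (3.38), Pald1, a phosphatase-like protein of vessels (2.56), and Socs2 (1.98) were the others. None of the other leading genes of that comparison was called in Peri cells. Slc34a2, a phosphate transporter of alveolar type II cells, differed by 4.58, with 0.26 in Peri and -4.33 in Fibro cells, and Lgi3 by 4.52, with 0.04 in Peri and -4.48 in Fibro cells. Acaa1b, a peroxisomal thiolase, differed by 6.07, with 1.19 in Peri and -4.87 in Fibro cells. Lgi3 was detected on 0 of the 4 Peri arrays, and Slc34a2 and Acaa1b on 1. The Peri values of Lgi3 and Slc34a2 lie at or near background and do not show whether these genes changed there. Acaa1b read 4.40 and 6.79 after bleomycin, against 4.49 and 4.32 uninjured, so its Peri difference rests on 1 array. On the lower side Tlr1, a receptor for bacterial lipopeptides, differed by -2.90, with -0.91 in Peri and 1.99 in Fibro cells, and Lat2, an adaptor of B cells and myeloid cells, by -2.76.

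Gdf3 differed by -2.60, Galnt9 by -2.54 and Cmah by -2.25. Cmah read -1.21 in Peri and 1.04 in Fibro cells, and was called in neither (adjusted p = 0.11 and 0.082 by limma). Tlr1, Lat2, Galnt9 and Cmah were lower on both bleomycin Peri arrays than on both uninjured ones, as were 19.15% of all autosomal genes, while the groups of Gdf3 overlapped. Between the Peri and PeriFibro responses limma called 0 genes, with 634 at an unadjusted p under 0.05 and a lowest adjusted p of 0.0504, shared by Gpnmb and Cmah. With array weights the same comparison called 15 genes. A median of 2.63 in Peri against 0.59 in PeriFibro for the 60 genes is a description, since the genes were chosen by their Peri values.

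**Figure D5:**
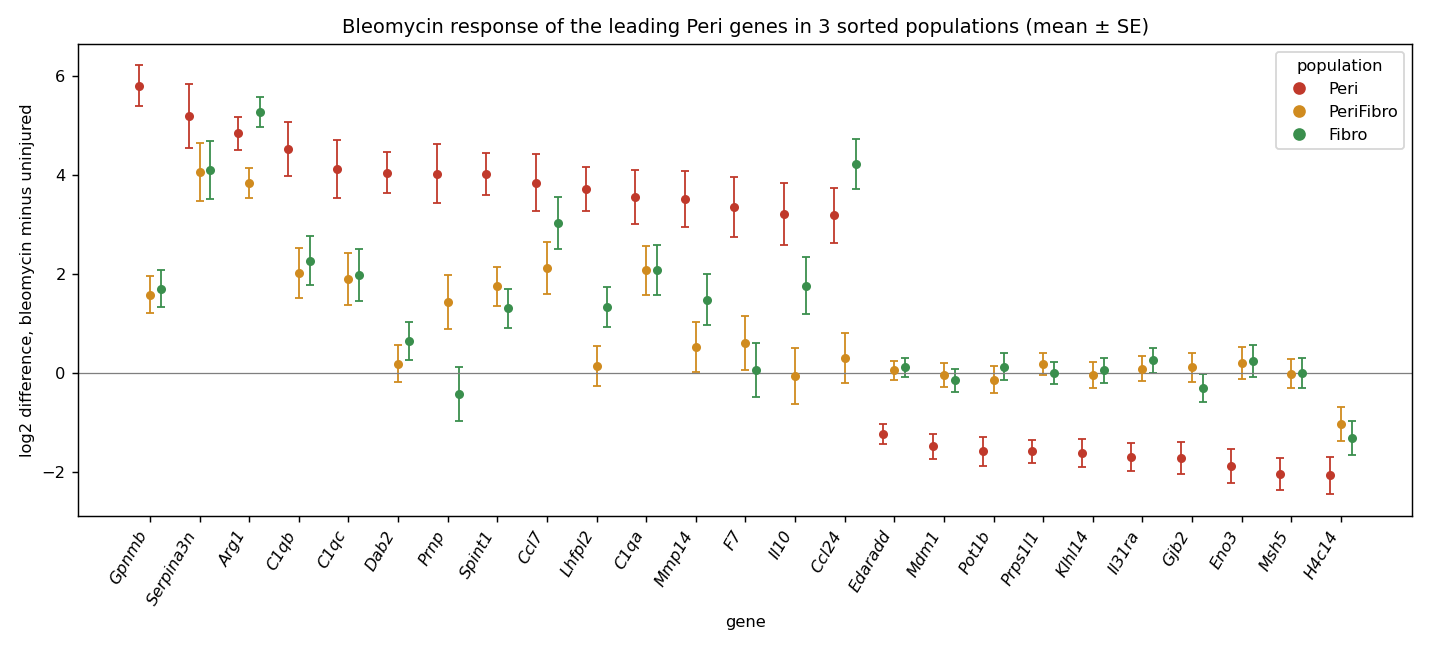
Log2 difference, bleomycin minus uninjured, with its SE, of the 15 highest and 10 lowest called Peri genes in Peri (red, 2 and 2 arrays), PeriFibro (orange, 3 and 2 arrays) and Fibro cells (green, 3 and 2 arrays). Arg1 and Serpina3n rose in all populations, Dab2 reads 4.04 in Peri against 0.18 in PeriFibro and 0.64 in Fibro cells, and the genes that fell in Peri lie near 0 in the others except H4c14.

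The calls rest on a spread shared by 14 arrays. With only the 4 Peri arrays in the model 10 autosomal genes were called, and all 10 were among the 60: Gpnmb, Arg1, C1qa, C1qb, C1qc, Spint1, Ccl7, Ccl24, Lhfpl2 and Sphk1. Leaving out each Peri array in turn gave 79 calls without bleomycin replicate 1, 16 without bleomycin replicate 2, 16 without uninjured replicate 1 and 10 without uninjured replicate 2. Gpnmb, Arg1, Dab2, Spint1 and Ffar2 were called under all 4 omissions, and 21 of the 70 genes under none.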

How the data were processed

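RNA of sorted lung cells was hybridised to Illumina MouseWG-6 v2.0 bead arrays, 14 in all. The authors deposited unnormalised signal intensity for 45281 probes per array, and the deposited table pairs it with a p-value of detection against negative controls. The scanner steps are not given in the sources used here. The log2 values the authors deposited were variance-stabilised and quantile-normalised with lumi, with no version stated, and served as an alternative.

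Intensities were background-corrected from the detection p-values, offset by 16, quantile-normalised and put on the log2 scale with neqc (limma 3.58.1, R 4.3.3). Filtering kept 24445 probes that reached a detection p below 0.05 on 2 or more arrays, and 20162 of these belong to 1 gene. Of all probes 34885 had 1 gene symbol, 18 several and 10378 none; symbols were updated through gene IDs. The kept probe with the highest mean stood for a gene. All 6 groups entered 1 linear model (lmFit, eBayes, 8 residual and 3.43 prior degrees of freedom), two-sided, with Benjamini-Hochberg adjustment over 12439 genes. The model was tested on simulated data. Where the probe that stood for a gene was detected on no array of a group, its fold was given as at least the bright group's mean over the background level, the lowest signal among detected probes. That bound holds for the probe, and another probe of the gene can differ by less.

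Genes named were the 15 highest and 10 lowest called without overlap and up to 4 called members of each list or, with none called, up to 3 with the largest differences. Added to these were the 15 measured of a list of 18 genes the paper names, and 5 at each end of each contrast of responses. Spp1, Areg and Foxd1 of that list were not measured, so nothing can be said of their change, and Timp1 was not on the list. Cxcl16, Edn1, Pdgfa, Bmp7, Ccr8, Ffar2, Mgp, Sphk1, Axl, Pdpn, Pald1, Socs2 and AA467197 were named after their values were seen. The genes and lists were chosen with earlier results of these data known. Precision is limited by 2 arrays per Peri group. Slides are not identified.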

Additional observations from a re-analysis of the deposited data

Results flagged for a closer look

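The responses of Peri and Fibro cells to bleomycin differed, by a contrast of the 2 responses in limma, at 15 genes named above. Positive differences were 6.07 for Acaa1b, 4.95 for Wfdc2, 4.58 for Slc34a2, 4.52 for Lgi3, 4.46 for Prnp, 4.10 for Gpnmb, 3.40 for Dab2, 3.38 for Mt1, 2.56 for Pald1 and 1.98 for Socs2 (log2, Peri minus Fibro). Negative differences were -2.90 for Tlr1, -2.76 for Lat2, -2.60 for Gdf3, -2.54 for Galnt9 and -2.25 for Cmah. Lgi3 was detected on 0 and Slc34a2 and Acaa1b on 1 of the 4 Peri arrays. The differences of Lgi3 and Slc34a2 rest on Peri values at or near background. That of Acaa1b rests on Peri values of which 1 array, at 6.79, was above background. All 15 kept their sign in every alternative run for them. The call held in 5 (Socs2) to 16 (Wfdc2, Lgi3) of 21 alternatives, and in 12 of 20 for Gdf3. No group of Peri arrays is large enough for a test of outlying samples.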

How the results depend on the processing

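The count of 70 genes called in Peri cells (60 higher, 10 lower) depended on the processing. It was 4 with the deposited values (Gpnmb, Arg1, Ffar2 and Eno3; 75% higher), 10 without background correction, 39 with an offset of 50, 32 with median scaling, 40 without a detection filter, 10 with only the Peri groups in the model and 11 when they were also normalised on their own, and 178 with array weights. Leaving out single Peri arrays gave 10 to 79. With median scaling all 32 calls were higher, 100% against 85.7%, none of the 10 genes that fell was called, and the median of all genes was 0.41 against 0.03; the cause was not tested. Leaving out 3 arrays of other populations that stood apart, chosen after the data were seen, gave 160, all 70 included.

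The deviations of same-numbered arrays correlated at -0.18 between the Peri groups and at -0.091 to 0.684 between other pairs of groups, so the samples were not taken as paired, though some groups share a pattern by number. With the replicate block 41 genes were called, and with the crossed pairing, added after the data were seen, 60. For the Peri against the Fibro response, 57 genes became 39 with the replicate block, 21 with the deposited values, 5 with median scaling and 0 with only the compared groups in the model, alone or normalised on their own (919 and 925 at an unadjusted p under 0.05); single arrays left out gave 1 to 96. For the Peri against the PeriFibro response, the count of 0 stayed 0 with the replicate block (559 unadjusted) and was 1 with the deposited values, 15 with array weights and 0 to 3 with single arrays left out.

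Of 107 genes followed, these turned sign, none of them called: Ccl20 (0.0134 with the deposited values, 0.01341 without background correction, 0.16 with median scaling, -0.45 to 0.38 with 1 array left out), and, with 1 array left out, Col3a1 (-0.17 to 1.85), Cxcl2 (-0.30 to 1.68), Pdgfrb (-0.48 to 0.76), Tnfrsf10b (-2.03 to 0.29), Gbp2 (-0.042 to 2.08) and Oasl2 (-2.27 to 0.22). Gains of a call came in 17 values, of Col1a1, Col5a1, Col6a1, Col15a1, Col18a1, H4c3, H4c4, H2ac8 and Tnfrsf4. List medians kept their side of 0 in all but 31 values. The 2 arrays per group, signal near background and the shared sex difference limit every call. A slide block was not run.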
